A study of Mus musculus with 16 samples.

Results

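The genes described here are 7 transcription factors and regulators tied to the making of astrocytes: the 4 nuclear factor I genes Nfia, Nfib, Nfic and Nfix, the cytokine-activated factor Stat3 with its feedback inhibitor Socs3, and the zinc-finger repressor Zbtb20. They were chosen by name, through the symbols of the Ensembl identifiers in the counts, and make up 7 of the 50600 genes listed for each library. Each symbol matched 1 identifier. The cells are F1 hybrids of the mouse strains 129/Sv and Castaneus (Cast), so that reads over strain differences can be given to the 129 or the Cast allele. Embryonic stem cells were turned into neural progenitor cells (NPC), colonies were picked, and each line studied is the progeny of such a colony. NPC were grown with EGF and FGF2 at 10 ng/mL each, and astrocytes were made from NPC by 48 h in BMP4 at 10 ng/mL with FGF2 at 1 ng/mL and no EGF.

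RNA of 12 clones was sequenced in 16 libraries. Astrocytes came from 5 clones, the female Astro_129, Astro_C2 and Astro_G4 and the male Astro_mC3 and Astro_mE6, with 1 poly(A) library each. The poly(A) NPC were 3 further clones, the female NPC_F5 and the male NPC_mG2 and NPC_mG6, with 1 library each. The remaining NPC were the male clones Ch3, Ch5, Ch7 and Ch8, each with 2 libraries made after ribosomal RNA depletion. Preparation and clones cannot be told apart for the Ch libraries, so they were tested among themselves, and their values are otherwise set beside the poly(A) values as descriptions. Only 1 alternative fits all 12 clones together, with preparation as a covariate. NPC libraries of the astrocyte clones were not analysed here, and a difference between astrocytes and poly(A) NPC is also one between different clones. Reads counted on genes numbered from 78257443 to 93963293 in the astrocyte libraries (median 80241858), from 69925081 to 105892734 in the poly(A) NPC libraries (median 81768235) and from 20871111 to 30920672 in the Ch libraries (median 27099466.5). Of these, 26753109 to 32518327, 21555315 to 32263331 and 4193927 to 5971768 could be given to an allele.

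As background, neural progenitors of the embryo make neurons first and glia later. NFIA and NFIB take part in that switch, with SOX9, and act on glial genes such as Gfap, while STAT3, phosphorylated by Janus kinases below the shared cytokine receptor chain gp130, binds the Gfap promoter and is held back by SOCS3, whose gene it activates. ZBTB20 acts in hippocampal development and in astrocyte formation, and BMP4 is commonly used to stop the division of cultured progenitors and make them astrocyte-like.

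In the mouse genome build GRCm38.p6 the genes lie on 5 chromosomes. Nfia (ENSMUSG00000028565.18, chr4:97578066-98118876) and Nfib (ENSMUSG00000008575.17, chr4:82290173-82506751) share chromosome 4. Stat3 (ENSMUSG00000004040.16, chr11:100886806-100939594) and Socs3 (ENSMUSG00000053113.3, chr11:117966079-117970336) share chromosome 11. Nfic (ENSMUSG00000055053.17) is at chr10:81396191-81431919, Nfix (ENSMUSG00000001911.16) at chr8:84704712-84801238, and Zbtb20 (ENSMUSG00000022708.16) at chr16:42875689-43634392. STAT dimers bind the letters TTCNNNGAA, which read the same on both strands, and the promoters of the group were searched for them because Stat3 is itself a member. RefSeq promoters on GRCm38.p6 were found for 6 of the 7 genes, with 9 entries, and for Nfib there was no entry. The letters stood in the 250 bases before the start in 3 of the 9 entries, that of Nfic, 1 of the 4 of Nfix and that of Socs3, and in 7.02% of all 32851 entries. The matches are shown here with 46 bases on each side, 5′ to 3′ on the minus strand, with the match in capitals: that of Nfic (chr10:81427216-81427316) lies 97 to 89 bases before the start, that of Nfix (chr8:84775929-84776029) 155 to 147 and that of Socs3 (chr11:117969466-117969566) 154 to 146. The start is that of the RefSeq entry, and the 3 windows lie inside the gene spans given above.
Nfic: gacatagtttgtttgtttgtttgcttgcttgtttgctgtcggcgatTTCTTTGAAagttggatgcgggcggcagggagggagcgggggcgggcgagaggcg
Nfix: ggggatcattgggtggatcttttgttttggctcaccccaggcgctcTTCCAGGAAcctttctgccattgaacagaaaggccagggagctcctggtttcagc
Socs3: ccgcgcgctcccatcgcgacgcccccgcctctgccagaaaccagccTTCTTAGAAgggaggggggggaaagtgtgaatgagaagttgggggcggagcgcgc
The paired NFI motif, TTGGC and GCCAA with 5 bases between them, was in 0 of the 9 entries and in 0.0365% of all entries, and either arm alone, TTGGC or GCCAA, was in 4 of the 9 entries (Nfix, Stat3 and Socs3) and in 41.5% of all. The paired motif holds both arms, and so overlaps the lone arm wherever it occurs. A match describes the letters in the window and says nothing of binding.

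The first question was whether total expression of the genes differs between astrocytes and NPC. In astrocytes 2 of the 7 genes fell, Nfia and Nfib, and 0 rose (25.5% of the 18192 genes tested passed the threshold of adjusted p under 0.05, 12.6% lower and 13.0% higher in astrocytes). Stat3 was higher in every astrocyte library than in every NPC library, without passing that threshold. Levels are given as counts per 1e6 reads (CPM) after TMM normalization, and the test is edgeR's quasi-likelihood test with Benjamini-Hochberg (BH) adjustment over all genes tested. With DESeq2 the called members were Nfia, Nfib and Stat3, and 6280 of the 18192 genes tested were called, against 4644 with edgeR. The p-values measure only the spread between clones, and in bulk RNA fewer cells of a type and less RNA per cell cannot be told apart.

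Nfia, the NFI gene most closely tied to the onset of gliogenesis, had 134 CPM in Astro_129, 132 in Astro_C2, 116 in Astro_G4, 142 in Astro_mC3 and 159 in Astro_mE6, against 261 in NPC_F5, 212 in NPC_mG2 and 205 in NPC_mG6. The groups did not overlap, and the highest astrocyte library was below the lowest NPC library. The means were 137 ± 15.6 CPM (SD, n = 5) in astrocytes and 226 ± 30.4 CPM (SD, n = 3) in NPC. This is a log2 fold change of -0.73 (SE 0.16, 95% interval -1.09 to -0.37, edgeR, BH adjusted p = 0.0128), or 1.66-fold between the groups, with Nfia lower in 5 of 5 astrocyte libraries. The call was made in 13 of 14 alternatives and was lost without NPC_F5, the NPC clone with the most Nfia (log2 fold change -0.61, adjusted p = 0.0520; over all alternatives p lay between 0.000306 and 0.0520).

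Nfib, which acts with Nfia in cortical and glial development, had 258 CPM in Astro_129, 186 in Astro_C2, 249 in Astro_G4, 183 in Astro_mC3 and 117 in Astro_mE6, against 333 in NPC_F5, 381 in NPC_mG2 and 345 in NPC_mG6. Again the groups did not overlap, and the astrocyte clones were spread more widely than the NPC clones. The mean was 198 ± 57.2 CPM (SD, n = 5) in astrocytes and 353 ± 25.1 CPM (SD, n = 3) in NPC. The log2 fold change was -0.83 (SE 0.25, 95% interval -1.41 to -0.26, edgeR, BH adjusted p = 0.0427), or 1.78-fold between the groups, with Nfib lower in 5 of 5 astrocyte libraries. This call stands near the threshold: it was lost without Astro_C2 (adjusted p = 0.0645), Astro_mC3 (0.0879), NPC_F5 (0.0918), NPC_mG2 (0.134) or NPC_mG6 (0.0747), while the log2 fold change stayed between -0.97 and -0.73 in all 14 alternatives.

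Nfix, the family member linked to progenitor maturation, had 201 CPM in Astro_129, 184 in Astro_C2, 214 in Astro_G4, 167 in Astro_mC3 and 143 in Astro_mE6, against 146, 171 and 124 in NPC_F5, NPC_mG2 and NPC_mG6. These groups overlapped. The log2 fold change was 0.31 (SE 0.19, 95% interval -0.12 to 0.73, edgeR, BH adjusted p = 0.254), and the value was 0.14 without NPC_mG6. Nfic, expressed in many tissues, ranged from 40.3 to 79.1 CPM in astrocytes and from 51.3 to 91.2 CPM in NPC, with a log2 fold change of -0.27 (SE 0.29, adjusted p = 0.53). No difference of Nfic was detectable with these clones: its 95% interval ran from -0.93 to 0.39, and the value was -0.10 without NPC_mG6 and -0.46 without NPC_F5.

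**Figure D1:**
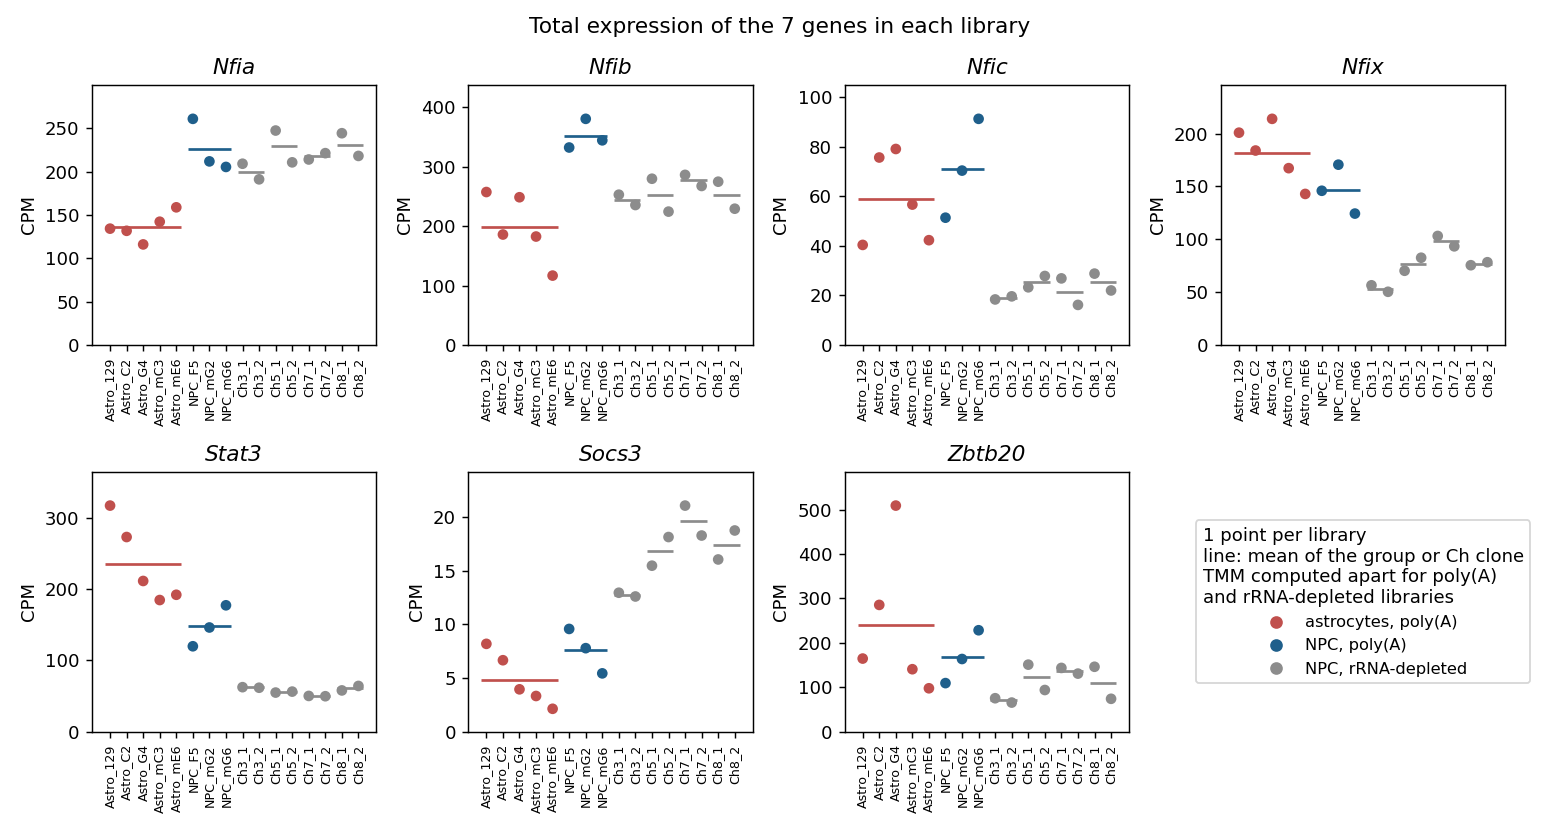
Total expression of the 7 genes in CPM after TMM normalization, 1 point per library, with lines at the mean of the astrocytes (red), of the poly(A) NPC (blue) and of each Ch clone (grey). Nfia and Nfib lie lower in the 5 astrocyte libraries than in the 3 poly(A) NPC libraries, Stat3 lies higher, and Zbtb20 reaches 509 CPM in Astro_G4.

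The NFI genes can be set side by side only per length, here as CPM per kb of exon, with approximate exon lengths (10.95, 14.96, 6.534 and 7.363 kb for Nfia, Nfib, Nfic and Nfix). In poly(A) NPC, mean levels per kb were 23.6 CPM for Nfib, 20.6 for Nfia, 19.96 for Nfix and 10.9 for Nfic, and the ranges of the first 3 over the clones overlap. In astrocytes the order was Nfix with 24.7 CPM per kb, Nfib with 13.3, Nfia with 12.5 and Nfic with 8.995, and Nfib and Nfia do not differ beyond their spread. Among the NFI genes, Nfix thus had the highest mean per kb in astrocytes and the third in NPC. As a share of the NFI total per kb, Nfix made up 40.2 to 43.4% in the 5 astrocyte libraries and 23.2 to 29.4% in the 3 poly(A) NPC libraries, and the share of Nfib was 16.2 to 27.4% against 30.2 to 32.3%. For Nfia the shares of 15.5 to 30.1% and 24.6 to 32.3% overlapped, with Astro_mE6 at the top of the astrocytes, and for Nfic those of 9.81 to 19.0% and 10.7 to 19.2% did too. These shares describe the balance within the family and were not tested. They sum to the whole, so a lower share of Nfia or Nfib raises that of Nfix.

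**Figure D2:**
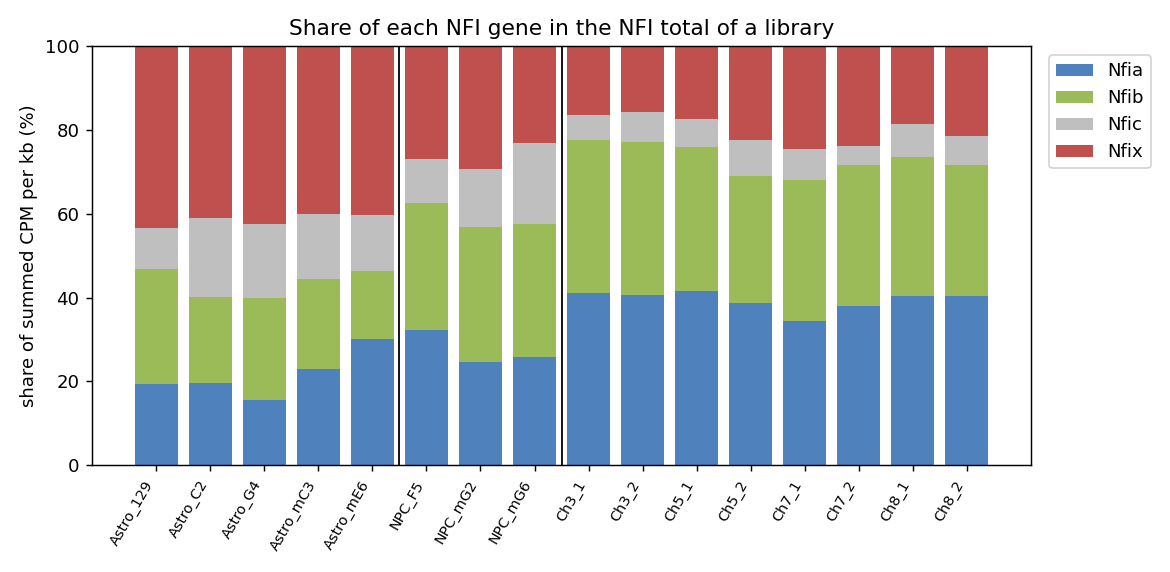
Share of each NFI gene in the summed NFI level per kb of exon, in percent, for each library, with lines between astrocytes, poly(A) NPC and Ch libraries. Nfix takes 40.2 to 43.4% in astrocytes and 23.2 to 29.4% in poly(A) NPC, where Nfib takes at least 30.2%.

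Stat3, the transcription factor activated by gp130 cytokines, had 318 CPM in Astro_129, 274 in Astro_C2, 212 in Astro_G4, 185 in Astro_mC3 and 192 in Astro_mE6, against 120.0 in NPC_F5, 146 in NPC_mG2 and 178 in NPC_mG6. The lowest astrocyte library lay just above the highest NPC library. Its log2 fold change was 0.67 (SE 0.24, 95% interval 0.13 to 1.22, edgeR, BH adjusted p = 0.0688), which is 1.60-fold higher and did not pass the threshold. It did so in 2 of 14 alternatives, with DESeq2 (adjusted p = 0.0464) and in a fit of all 12 clones with preparation as a covariate (0.0189), and p reached 0.206 in another. All Ch clones are NPC of the other preparation, so in the fit of 12 clones they inform the spread and not the difference. Its log2 fold change was again 0.67. With Nfia and Nfib, Stat3 makes 3 of 7 members whose astrocyte and NPC libraries did not overlap, against 32.7% of all genes tested.

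Socs3, the inhibitor that shuts off cytokine receptors bound to gp130, was the least expressed of the 7 per kb in poly(A) libraries. It had 8.18 CPM in Astro_129, 6.65 in Astro_C2, 3.94 in Astro_G4, 3.32 in Astro_mC3 and 2.13 in Astro_mE6, against 9.57 in NPC_F5, 7.78 in NPC_mG2 and 5.43 in NPC_mG6. The groups overlapped. The log2 fold change was -0.65 (SE 0.46, 95% interval -1.69 to 0.39, edgeR, BH adjusted p = 0.329), and -1.003 with sex as a covariate (adjusted p = 0.0895). Per kb, mean Stat3 was 24.8 CPM in astrocytes and 15.5 CPM in NPC, and mean Socs3 1.68 and 2.63 CPM.

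Zbtb20 varied most between astrocyte clones, with 165 CPM in Astro_129, 286 in Astro_C2, 509 in Astro_G4, 141 in Astro_mC3 and 97.6 in Astro_mE6, a range of 5.22-fold, against 109 in NPC_F5, 164 in NPC_mG2 and 228 in NPC_mG6. Astro_G4 stood highest and Astro_mE6 was below all poly(A) NPC libraries. The log2 fold change was 0.52 (SE 0.53, 95% interval -0.70 to 1.74, edgeR, BH adjusted p = 0.513). It rested on 1 clone, being 0.02 without Astro_G4, and it was 0.11 with sex as a covariate and 0.29 without NPC_F5. The other members ranged less in astrocytes, from 1.37-fold for Nfia to 3.85-fold for Socs3.

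The astrocyte libraries come from 3 female and 2 male clones and the poly(A) NPC libraries from 1 female and 2 male clones. The authors used a female and a male embryonic stem cell line, so sex cannot be told apart from the line of origin. That also holds for the fits with sex as a covariate. In astrocytes, the 3 female libraries were all above the 2 male ones for 5 of the 7 genes (Nfib, Nfix, Stat3, Socs3 and Zbtb20), against 18.4% of all genes tested, and for Nfia they were all below. With 3 clones against 2, an exact two-sided permutation test cannot give a p under 0.2, and a difference by sex was not tested. This pattern was noticed after the values were seen. The genes whose log2 CPM followed each member most closely over the 8 poly(A) libraries, out of 9969 genes compared, are given as a description, since the libraries fall into 2 cell types. For Nfia they were Zdhhc6 (Pearson's r = 0.990), Prpf31 (0.989) and Eny2 (0.988), and for Nfib Zbtb39 (0.993), Nup188 (0.991) and Eml4 (0.985). Stat3 was followed by Rnf19a (r = 0.980), Xpr1 (0.976) and Gfra1 (0.974), Zbtb20 by Cep120 (0.981), Dst (0.973) and Otud7b (0.968), and Socs3 by Rad52 (0.980), Zmiz2 (0.976) and Dhx37 (0.967). Those nearest to Nfix were AI480526 (r = 0.944), Gigyf1 (0.934) and Gabbr1 (0.931), and those nearest to Nfic were Tanc2 (0.955), Fat4 (0.943) and Atp2b1 (0.940).

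The second question was how far each gene leans to an allele. The Cast share of a gene's allele-specific reads is used here, with classes set at under 15% or over 85% for monoallelic, 35 to 65% for biallelic and biased in between. Of the 84 values of the 7 genes in 12 clones, 0 were monoallelic, 10 were biased (5 of Nfia, 4 of Socs3 and 1 of Stat3) and 74, or 88.1%, were biallelic. Over all autosomal genes the shares were 5.57%, 12.4% and 82.1% of 121838 values. Nfib, Nfic, Nfix and Zbtb20 were biallelic in 12 of 12 clones. Intervals on single shares are 95% Wilson intervals, and they cover counting error only, since PCR reads are not independent molecules.

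Nfia leaned to the 129 allele in every clone. Its Cast share was 27.99% in Astro_129 (26.04 to 30.02%, 1958 reads), 32.6% in Astro_C2 (30.4 to 34.96%), 35.7% in Astro_G4 (33.4 to 38.2%), 34.5% in Astro_mC3 (32.3 to 36.9%) and 32.3% in Astro_mE6 (30.2 to 34.6%). In poly(A) NPC it was 34.3% in NPC_F5 (32.7 to 35.98%), 35.1% in NPC_mG2 (33.2 to 37.0%) and 36.7% in NPC_mG6 (34.9 to 38.6%). In the Ch clones it was 45.9% in Ch3 (43.4 to 48.4%), 39.3% in Ch5 (37.2 to 41.5%), 40.7% in Ch7 (38.6 to 42.9%) and 45.3% in Ch8 (43.0 to 47.5%). The 8 poly(A) clones thus lay below all Ch clones, a difference that goes with preparation and was not tested. The log2 ratio of Cast to 129 was -1.05 (SE 0.07, edgeR, BH adjusted p = 0.000131) in astrocytes and -0.87 (SE 0.09, adjusted p = 0.00121) in poly(A) NPC, and both calls were made in 11 of 11 alternatives. In astrocytes 3 of 7 members were called for a lean to either allele, Nfia, Nfix and Stat3 (33.7% of 12121 genes tested), and in poly(A) NPC 3 of 7, Nfia, Nfix and Socs3 (22.7%).

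The median of the genes near Nfia was closer to 50% than Nfia in every clone. Within 10 Mb on each side of Nfia, the median Cast share was 45.98 to 50.9% over 55 to 62 genes, lowest in Astro_C2, and Nfia lay below the median of its neighbours in 12 of 12 clones, with differences from -22.1 to -4.45 points. Stat3 also lay below its neighbours in 12 of 12 clones, with differences from -16.8 to -1.41 points. A strain difference in the mapping of reads was not tested for any of the 7 genes.

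Stat3 had a Cast share of 44.5% in Astro_129 (43.7 to 45.3%), 40.3% in Astro_C2 (39.3 to 41.3%), 39.1% in Astro_G4 (38.0 to 40.2%), 40.0% in Astro_mC3 (38.9 to 41.2%) and 31.4% in Astro_mE6 (30.4 to 32.4%). The poly(A) NPC shares were 47.8% in NPC_F5 (46.6 to 49.1%), 44.1% in NPC_mG2 (42.7 to 45.5%) and 45.1% in NPC_mG6 (43.9 to 46.4%), and the Ch shares ran from 41.0 to 45.1%. Every clone was under 50%, with Astro_mE6 lowest. In astrocytes the log2 ratio was -0.65 (SE 0.11, edgeR, BH adjusted p = 0.00364), in all 11 alternatives, and in poly(A) NPC it was -0.25 (SE 0.14, adjusted p = 0.253). The change of this ratio between the cell types was -0.40 (95% interval -0.80 to 0.01, adjusted p = 0.382), so a difference in lean between them was not shown.

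Nfix leaned slightly to Cast, with shares of 51.9 to 56.8% in astrocytes, 55.1 to 55.7% in poly(A) NPC and 47.8 to 55.0% in the Ch clones. The log2 ratio was 0.26 (SE 0.04, edgeR, BH adjusted p = 0.00297) in astrocytes and 0.32 (SE 0.05, adjusted p = 0.00591) in poly(A) NPC, with the Cast allele higher in 8 of 8 libraries and the call made in 11 of 11 alternatives in each cell type. Zbtb20 had shares of 49.6 to 55.9% in astrocytes, 52.3 to 58.1% in poly(A) NPC and 49.6 to 57.1% in the Ch clones, with log2 ratios of 0.14 (adjusted p = 0.168) and 0.28 (adjusted p = 0.0595). Its poly(A) NPC ratio was called without Astro_mE6 (adjusted p = 0.0495) and was 0.18 without NPC_F5 (0.264), and its astrocyte ratio was 0.08 without Astro_mE6 (0.392). Nfic had shares of 46.2 to 51.6% in astrocytes and 47.9 to 49.2% in poly(A) NPC, with log2 ratios of -0.13 (adjusted p = 0.0852) and -0.08 (adjusted p = 0.472).

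Nfib and Socs3 differed most in Cast share between the cell types. For Nfib the shares were 52.2% in Astro_129, 43.7% in Astro_C2, 56.2% in Astro_G4, 52.8% in Astro_mC3 and 58.3% in Astro_mE6, against 44.6% in NPC_F5, 44.3% in NPC_mG2 and 41.9% in NPC_mG6. Of the astrocytes 4 clones were above 50% and Astro_C2 was below, beside the NPC clones. The genes within 10 Mb of Nfib had a median of 44.1 to 49.8%, and Nfib stood above it in 4 of 5 astrocyte clones and below it in all 7 NPC clones. In Astro_C2 all of chromosome 4 had a median of 44.8%, against 49.0 to 49.3% in the other astrocyte clones but Astro_G4 (44.2%), and Nfib lay only 0.32 points below its neighbours there. The part of the chromosome in the share of Nfib was not tested. Against 129, the log2 ratio of Nfib was 0.15 (adjusted p = 0.356) in astrocytes, with 0.07 (0.689) without Astro_mE6 and 0.10 (0.615) without Astro_G4, and -0.37 (adjusted p = 0.118) in poly(A) NPC. Without Astro_C2 the members called in astrocytes were 5 in place of 3, with Nfib (log2 ratio 0.28, adjusted p = 0.0282) and Nfic (-0.19, adjusted p = 0.00849) added. Of all genes tested, 3400 of 11892 were called in astrocytes without Astro_C2, against 4085 of 12121 with it. The ratio of Nfib in poly(A) NPC was called too without Astro_C2 (adjusted p = 0.0222), as were 2567 of the 11892 genes.

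The Cast share of Socs3 was over 50% in all NPC clones and under 50% in all astrocyte clones, though some of the intervals hold 50%. Its shares were 68.7% in NPC_F5 (64.5 to 72.6%, 511 reads), 55.7% in NPC_mG2 (49.7 to 61.6%) and 57.0% in NPC_mG6 (50.3 to 63.5%), and 67.1%, 67.3%, 63.4% and 66.3% in Ch3, Ch5, Ch7 and Ch8. In astrocytes they were 48.2% in Astro_129 (43.3 to 53.0%), 42.9% in Astro_C2 (36.9 to 49.0%), 41.96% in Astro_G4 (34.2 to 50.2%), 42.1% in Astro_mC3 (34.3 to 50.4%) and 49.5% in Astro_mE6 (40.2 to 58.9%), from 107 to 407 reads. All 7 NPC clones were above all 5 astrocyte clones. Of 8616 autosomal genes with a share in every clone, 6.99% had no overlap between these groups, and among the members Socs3 alone. The 7 NPC clones mix both preparations, and with the 3 poly(A) NPC clones only, 14.8% of 9079 genes had no overlap. Socs3 was also above the median of the genes within 10 Mb in 7 of 7 NPC clones, by 6.55 to 19.3 points, and below it in 4 of 5 astrocyte clones. In poly(A) NPC the log2 ratio was 0.62 (SE 0.18, edgeR, BH adjusted p = 0.0452). That call was lost without any 1 of the 8 libraries (adjusted p from 0.0558 without Astro_G4 to 0.172 without NPC_F5, where the log2 ratio was 0.37), and was made in 3 of 11 alternatives, none of which leaves out a library.

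The change of the log2 ratio between astrocytes and poly(A) NPC was called for 0 of the 7 members (edgeR with BH adjustment; 0.487% of 12121 genes tested), 2 members had an unadjusted p under 0.05, as had 1632 of the 12121 genes, and limma called 0. Those 2 were Socs3, with a change of -0.92 (SE 0.23, 95% interval -1.45 to -0.39, adjusted p = 0.129), and Nfib, with 0.53 (SE 0.18, 95% interval 0.09 to 0.96, adjusted p = 0.269). For Nfia, Nfix, Nfic and Zbtb20 the changes were -0.18, -0.06, -0.05 and -0.14, with adjusted p from 0.616 to 0.819. Their sizes depend on single libraries: Nfia was -0.10 without Astro_129, Nfix -0.02 without Astro_C2 and -0.09 without Astro_mE6, Nfic -0.11 without Astro_C2 and -0.03 without Astro_mC3, and Zbtb20 -0.05 without NPC_F5 and -0.22 without NPC_mG6. Values split by allele count only reads that could be given to an allele, and so are part of a gene's total CPM. The share of such reads differed between libraries, with 30.5% of all reads in NPC_F5 and 34.8% in Astro_mC3. Split by allele, mean Socs3 was 1.13 CPM from Cast and 1.37 from 129 in astrocytes, against 2.24 and 1.40 in poly(A) NPC, a log2 difference of -0.99 for the Cast allele and -0.02 for the 129 allele. Without 1 library each, these ran from -1.34 (without Astro_129) to -0.62 (without NPC_F5) for Cast and from -0.28 (without Astro_129) to 0.17 (without Astro_mE6) for 129, so that the sign of the latter is not settled. Mean Nfib from the 129 allele was 29.2 CPM in astrocytes and 62.3 in NPC (log2 difference -1.10), and from the Cast allele 32.3 and 48.4 CPM (-0.58). Nfia was lower in astrocytes from both alleles, with log2 differences of -0.75 for Cast and -0.57 for 129. Mean Stat3 was higher from both, with 0.54 for Cast (0.33 without Astro_129) and 0.89 for 129. These allele-wise differences are descriptions with no test of their own.

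**Figure D3:**
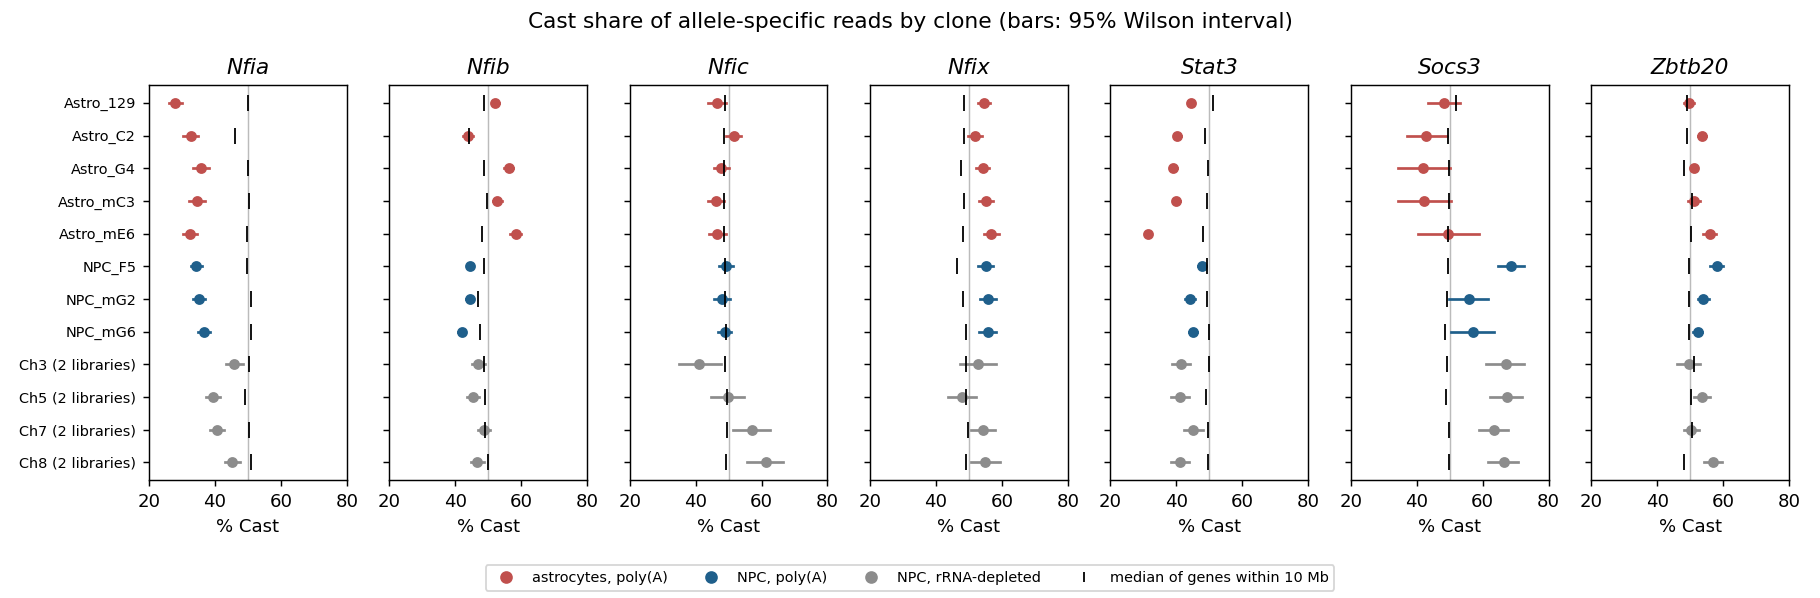
Cast share of the allele-specific reads of the 7 genes in each of the 12 clones, in percent, with 95% Wilson intervals as bars, the median of the genes within 10 Mb as a black tick, and 50% as a grey line. Nfia lies left of its neighbours in 12 of 12 clones, and Socs3 lies right of 50% in the 7 NPC clones and left of it in the 5 astrocyte clones.

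The third question was how much the genes vary between NPC clones, which the Ch libraries can answer since each clone has 2 of them; here the p-values measure only the spread between the libraries of a clone. Total expression differed between the 4 clones for 2 of 7 members, Nfix and Socs3 (edgeR, BH; 16.6% of 17095 genes tested). Nfix had 56.4 and 50.3 CPM in the libraries of Ch3, 70.2 and 82.5 in Ch5, 103 and 93.3 in Ch7 and 75.4 and 78.2 in Ch8. Ch3 was lowest and Ch7 highest in both of their libraries, a range of 0.88 on the log2 scale (adjusted p = 0.00134), called in 11 of 11 alternatives. Socs3 had 12.9 and 12.6 CPM in Ch3, 15.5 and 18.1 in Ch5, 21.1 and 18.3 in Ch7 and 16.0 and 18.7 in Ch8. Its range was 0.63 (adjusted p = 0.0348), again with Ch3 lowest, and the call was lost without Ch3_1 (adjusted p = 0.135), Ch3_2 (0.189), Ch7_1 (0.132) or Ch7_2 (0.0601).

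Zbtb20 had a wider range of 0.96, from a mean of 70.3 CPM in Ch3 to 137 in Ch7, and was not called (adjusted p = 0.124). Its libraries had 75.2 and 65.4 CPM in Ch3, 151 and 93.7 in Ch5, 143.5 and 131 in Ch7 and 146 and 73.9 in Ch8, with library 1 higher in 4 of 4 clones. Without Ch8_1 (adjusted p = 0.00519) or Ch8_2 (0.00666), and with no filter on low counts (8.32e-19), it was called. The range with no filter was 0.98, so that very small p reflects the spread estimated in that fit and not a larger difference. Zbtb20 was also called with library number as a replicate block (0.0148), though these numbers need not mark a batch. Stat3 had a range of 0.31 (adjusted p = 0.0583; 0.0325 without Ch8_1 and 0.0403 with this block), Nfic one of 0.43 (adjusted p = 0.388; 0.00688 with no filter on low counts), Nfia 0.21 (0.417) and Nfib 0.18 (0.667). These ranges were 0.66 for Nfic without Ch7_1, 0.31 for Nfia without Ch5_2 and 0.30 for Nfib without Ch5_1, with none of them called. Mean Nfia was 219 ± 14.2 CPM and mean Nfib 256 ± 14.3 CPM (SD, n = 4 clones), and the highest clone was 1.16-fold above the lowest for Nfia and 1.13-fold for Nfib. Per kb, the mean levels in Ch clones were 20.04 CPM for Nfia, 17.1 for Nfib, 10.4 for Nfix, 6.001 for Stat3, 5.76 for Socs3, 3.58 for Zbtb20 and 3.49 for Nfic. Stat3 and Socs3 do not differ beyond the spread between clones there, nor do Zbtb20 and Nfic.

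The Cast share differed between Ch clones for Nfia and Nfic (2 of 7 members, edgeR, BH; 9.19% of 10649 genes tested). For Nfia the log2 ratio ranged over 0.39 (adjusted p = 0.0170), with Ch5 and Ch7 below Ch3 and Ch8, and the call was lost without Ch3_2 (0.117), Ch5_2 (0.193), Ch7_1 (0.0596), Ch7_2 (0.0604) or Ch8_2 (0.0640). For Nfic the range was 1.12 (adjusted p = 0.0392), from 41.2% in Ch3 to 61.2% in Ch8. The libraries of Ch3 themselves differed, with 53.2% of 79 reads (42.3 to 63.8%) and 34.7% of 147 reads (27.5 to 42.7%). Without Ch3_2 the range of Nfic was 0.67 (adjusted p = 0.547), and the call was also lost without Ch5_2 (0.0999), Ch7_1 (0.117), Ch7_2 (0.102), Ch8_1 (0.239) or Ch8_2 (0.0942), and with library number as a replicate block (0.0773). For Zbtb20 the range was 0.43 (adjusted p = 0.172; 0.0491 without Ch3_2), and for Nfib, Nfix, Stat3 and Socs3 adjusted p lay between 0.729 and 0.966.

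The pathway around the 7 genes was followed through 8 lists, described by counts from the total-expression test and by their median log2 fold change, beside a median of 0.08 over all genes tested. Above Stat3, the gp130 ligands had 5 genes tested, 0 called higher and 1 lower (median -0.74), and Osm, Il6 and Il11 were too low to test. Lif, a gp130 cytokine, fell from 5.54 ± 1.74 CPM (SD, n = 3) in NPC to 0.676 ± 0.507 CPM (SD, n = 5) in astrocytes, lower in 5 of 5 (log2 fold change -3.03, SE 0.62, edgeR, BH adjusted p = 0.00989). Of the 6 receptors 2 rose and 0 fell (median 0.40; -0.02 without Astro_C2). Il6st, which encodes gp130, had 509, 430, 1023, 243 and 301 CPM in Astro_129, Astro_C2, Astro_G4, Astro_mC3 and Astro_mE6, against 102, 130 and 177 in the NPC clones, so that the groups did not overlap. It rose by a log2 fold change of 1.88 (SE 0.49, adjusted p = 0.0256), a call lost without NPC_F5 (0.0972), NPC_mG2 (0.0952) or NPC_mG6 (0.0561) and with sex as a covariate (1.53, adjusted p = 0.0666). Lifr, its partner for LIF, rose by 0.55 between the groups (SE 0.17, adjusted p = 0.0481) and was higher in 5 of 5 astrocyte libraries. It was called in 3 of 14 alternatives and lost the call without any library other than Astro_129 (p up to 0.155).

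Of the 9 Janus kinases and other STATs tested, 3 rose and 0 fell (median 0.23; Stat4 was too low to test). Jak3 had 16.8 to 39.7 CPM in astrocytes and 4.34 to 5.37 CPM in NPC (log2 fold change 2.47, SE 0.33, edgeR, BH adjusted p = 0.00181), called in 14 of 14 alternatives. Stat2, a factor of interferon signalling, had 25.2 to 71.5 CPM against 12.1 to 13.6 CPM (1.63, SE 0.36, adjusted p = 0.0136), and Jak1, the most abundant of the list per kb and a main kinase at gp130, had 160 to 391 CPM against 105 to 146 CPM (1.14, SE 0.30, adjusted p = 0.0271). In each of the 3, all 5 astrocyte libraries were above all 3 NPC libraries. The call of Stat2 was lost without NPC_F5 (0.0516), NPC_mG2 (0.0617) or NPC_mG6 (0.0505), and that of Jak1 without these (0.0985, 0.106 and 0.0561) or Astro_mC3 (0.0542).

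Among 17 STAT inhibitors, 2 rose, 1 fell and 14 were not called (median 0.14; -0.002 without Astro_G4). Socs2 had 10.1 to 126 CPM in astrocytes and 1.74 to 4.95 CPM in NPC (log2 fold change 3.89, SE 0.94, adjusted p = 0.0187; 0.0740 without NPC_F5, 0.0770 without NPC_mG2, and 2.85 with adjusted p = 0.0634 with sex as a covariate). Socs1 had 1.10 to 2.45 CPM against 0.295 to 0.378 CPM (2.42, SE 0.39, adjusted p = 0.00420), called in 14 of 14 alternatives. Beside them, the log2 fold change of Socs3 was -0.65 and not called. Sh2b3, an adaptor that dampens cytokine signals, was lower in 5 of 5 astrocyte libraries, with 13.4 to 33.9 CPM against 44.4 to 84.8 CPM (-1.48, SE 0.38, adjusted p = 0.0246), a call lost without Astro_mC3 (0.0522), NPC_mG2 (0.0655) or NPC_mG6 (0.0815). Ptpn11, a phosphatase gene and the most abundant of the list per kb, had a log2 fold change of 0.14 (adjusted p = 0.683), and -0.065 without Astro_G4.

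Downstream of STAT3, 19 target genes were tested, of which 3 rose and 4 fell (median 0.42). Gfap, the intermediate filament gene of astrocytes, had 1976 CPM in Astro_129, 65.4 in Astro_C2, 224 in Astro_G4, 165 in Astro_mC3 and 254 in Astro_mE6, against 0.669, 2.12 and 1.82 in the NPC clones (log2 fold change 8.45, SE 1.56, edgeR, BH adjusted p = 0.00674). The kinase genes Pim1 (3.60, SE 0.64, adjusted p = 0.00588) and Pim3 (3.52, SE 0.59, adjusted p = 0.00473) also rose in 5 of 5 astrocyte libraries. The genes that fell most were Birc5, which encodes the division protein survivin (-6.02, SE 0.31, adjusted p = 2.31e-05), the cyclin gene Ccnd1 (-4.26, SE 0.76, adjusted p = 0.00611) and the adhesion gene Icam1 (-4.13, SE 1.04, adjusted p = 0.0220), the last not called without NPC_F5 (-2.64, adjusted p = 0.106). Vim, the most abundant per kb, had a log2 fold change of -0.49 (adjusted p = 0.0843). Proliferation markers moved with these: 5 of 5 fell, from a summed 1130 to 1294 CPM in poly(A) NPC to 9.59 to 25.8 CPM in astrocytes, with 896 to 1409 CPM in the Ch libraries. Birc5 is in both lists, Top2a was the most abundant per kb, and 0 of the 5 were at 0. Their part in the changes of Nfia, Nfib and the STAT3 targets was not tested.

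Of the 18 NFI and SOX9 astrocyte targets tested, 4 rose, 3 fell and 11 were not called (median 0.10; -0.02 without Astro_C2 and -0.05 without NPC_mG6). Beside Gfap, the water channel gene Aqp4 rose from 0.529 to 3.50 CPM in NPC to 15.9 to 129 CPM in astrocytes (log2 fold change 5.37, SE 0.93, edgeR, BH adjusted p = 0.00535). The glutamate transporter gene Slc1a2 had 274 to 1107 CPM in astrocytes and 19.1 to 94.3 CPM in NPC (3.52, SE 0.72, adjusted p = 0.0101). The genes that fell, each lower in 5 of 5 astrocyte libraries, were the Polycomb methyltransferase gene Ezh2 (-1.88, SE 0.28, adjusted p = 0.00298), the folate enzyme gene Aldh1l1 (-1.55, SE 0.45, adjusted p = 0.0367) and Zcchc24 (-1.07, SE 0.20, adjusted p = 0.00717). The call of Aldh1l1 was lost without Astro_G4 (0.0656), Astro_mC3 (0.0760), NPC_F5 (0.100), NPC_mG2 (0.0655) or NPC_mG6 (0.0974). Fabp7, a lipid-binding protein gene of radial glia and the most abundant of the list per kb, ranged from 95.1 to 851 CPM in astrocytes and from 859 to 2658 CPM in NPC (-2.05, SE 0.74, adjusted p = 0.0743).

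Of 26 other gliogenic and radial glial factors tested, 7 rose, 1 fell and 18 were not called (median 0.01, with its sign changing under several alternatives). Id4 (log2 fold change 5.49, SE 0.83, edgeR, BH adjusted p = 0.00318), Id2 (3.86, SE 0.46, adjusted p = 0.00112) and Id1 (3.84, SE 0.43, adjusted p = 0.000789), which encode inhibitors of basic helix-loop-helix factors and are known targets of BMP signals, rose in 5 of 5 astrocyte libraries and in 14 of 14 alternatives. Olig2, an oligodendrocyte and progenitor factor, fell by 2.43 on the log2 scale (SE 0.43, adjusted p = 0.00598). Sox9, which works with NFIA, had 30.5 to 87.1 CPM in astrocytes and 35.7 to 76.3 CPM in NPC (0.10, SE 0.38, adjusted p = 0.881), and its sign turned without Astro_129 (-0.14), Astro_G4 (-0.02), NPC_F5 (-0.05) or NPC_mG6 (-0.16). Among 28 BTB zinc-finger genes other than Zbtb20, 4 rose, 1 fell and 23 were not called (median 0.04, again with a sign that changed under some alternatives). Zbtb4 had 41.9 to 55.4 CPM in astrocytes and 10.8 to 21.8 CPM in NPC (1.57, SE 0.26, adjusted p = 0.00422), in 14 of 14 alternatives. Zbtb16 (2.29, SE 0.63, adjusted p = 0.0302) and Zbtb1 (1.20, SE 0.35, adjusted p = 0.0387) were higher and Zbtb10 (-1.55, SE 0.37, adjusted p = 0.0185) lower in 5 of 5 astrocyte libraries. These calls were lost without NPC_mG2 (0.107, 0.141 and 0.0682) or NPC_mG6 (0.0503, 0.124 and 0.0598), those of Zbtb16 and Zbtb1 also without NPC_F5 (0.104 and 0.0710) or Astro_G4 (0.0562 and 0.0694), and that of Zbtb1 without Astro_129 (0.0540). Zbtb16 was also not called with sex as a covariate (1.90, adjusted p = 0.0864), nor Zbtb1 with no filter on low counts (adjusted p = 0.0501). Zbtb33, the most abundant of them per kb, had a log2 fold change of -0.26 (adjusted p = 0.321).

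**Figure D4:**
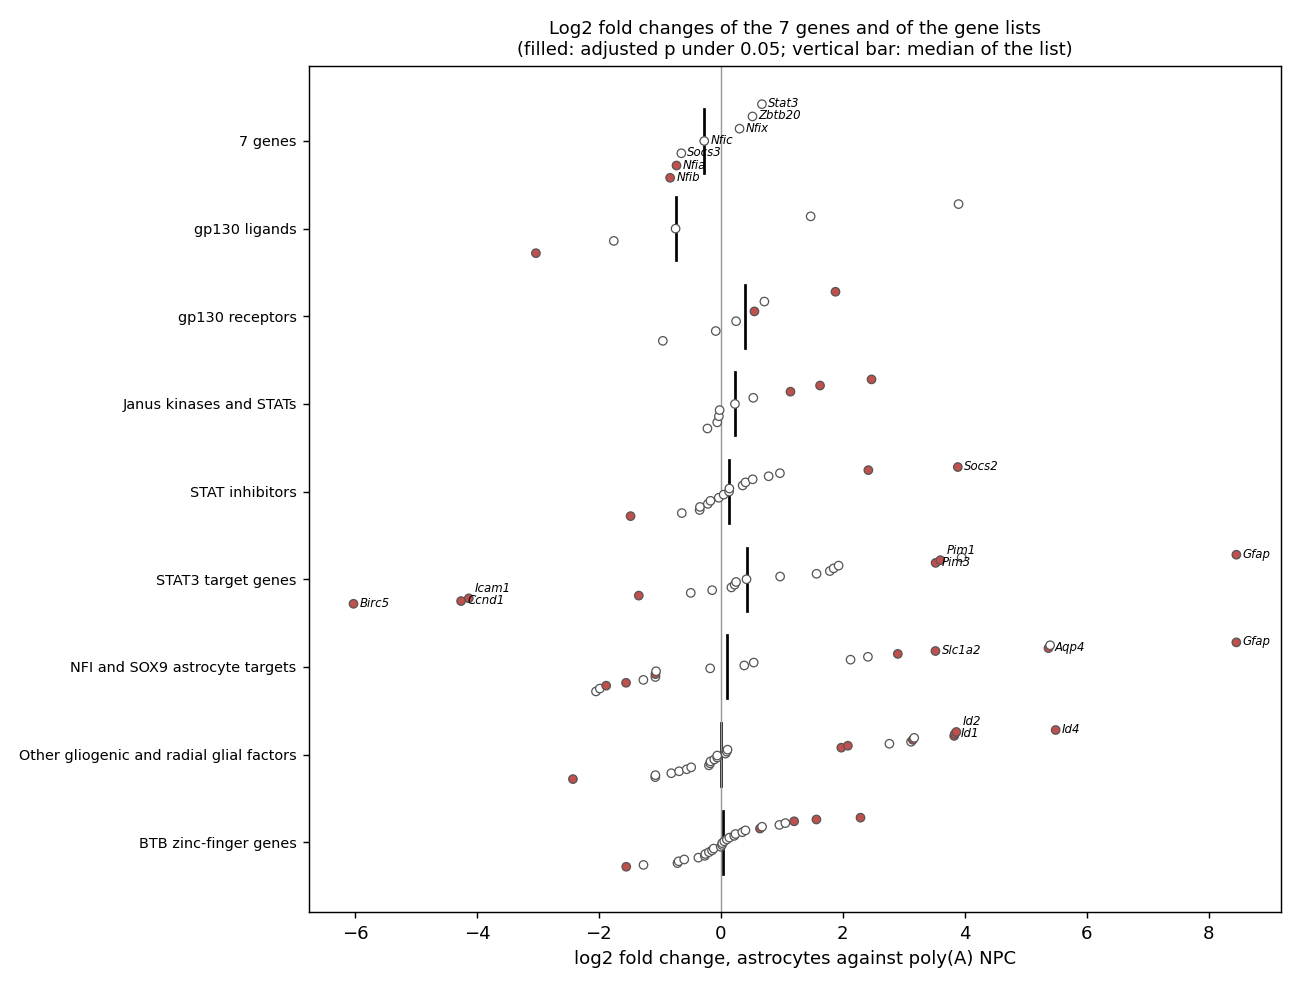
Log2 fold changes between astrocytes and poly(A) NPC for the 7 genes and for the tested genes of each list, 1 point per gene, filled where the adjusted p is under 0.05, with a bar at the median and names at the members and at named genes changed by a large amount. The 7 genes lie between -0.83 and 0.67, while named genes of the lists reach from -6.02 for Birc5 to 8.45 for Gfap.

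Markers of cell types were read beside these values. Of 10 astrocyte markers tested, 3 rose (Gfap, Aqp4 and Slc1a2) and 1 fell (Aldh1l1). Their sum was 2660 to 6163 CPM in astrocytes, 1585 to 2274 CPM in poly(A) NPC and 1580 to 2178 CPM in the Ch libraries, with Glul the most abundant per kb. Of 7 neural progenitor markers 0 rose and 2 fell, Nes (log2 fold change -3.79) and Olig2, and their sum was 412 to 1498 CPM in astrocytes, 3397 to 4879 in poly(A) NPC and 2658 to 3348 in the Ch libraries, with Fabp7 the most abundant per kb. Neuron markers summed to 13.4 to 39.5 CPM in astrocytes and 15.1 to 33.2 CPM in poly(A) NPC (1 of 7 rose, Snap25; Tubb3 was the most abundant per kb), and oligodendrocyte lineage markers to 32.0 to 98.8 and 53.7 to 82.5 CPM (0 of 5 tested were called; Cnp was the most abundant per kb). Microglia and blood markers summed to 5.07 to 21.1 CPM in astrocytes, mostly from Tmem119, which rose (1 of 2 tested), and to 0.316 to 0.591 CPM in poly(A) NPC, with Itgam and C1qa at 0 in all poly(A) libraries. Endothelial and mesenchymal markers summed to 3.84 to 224 CPM in astrocytes, with 211 CPM of Col1a1 in Astro_C2, and to 2.64 to 10.8 CPM in poly(A) NPC (2 of 5 tested rose, Col1a1 and Pecam1, and Cldn5 was at 0 in all poly(A) libraries). Embryonic stem cell markers summed to 6.76 to 17.7 and 8.50 to 13.7 CPM, with Klf4 the most abundant per kb, and 2 of 5 tested fell, Pou5f1 and Dppa5a. The part of any of these in the values of the 7 genes was not tested.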

How the data were processed

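RNA-seq of 12 clones of 129/Sv × Cast hybrid cells in 16 libraries was used. The authors aligned reads with TopHat2 (2.1.0) to a genome masked at strain differences, gave reads to alleles with SNPsplit and counted them per gene with featureCounts (1.5.1). The deposited counts give all reads, Cast reads and 129 reads for 50600 genes without normalization. The annotation version is not stated, so exon lengths and levels per kb are approximate. The deposited fraction, the Cast share of allele-specific reads given from 10 such reads on, was recomputed from the counts (largest gap 5.0e-07).

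Total expression was tested with edgeR (4.0.16; TMM, filterByExpr, quasi-likelihood) on 5 astrocyte and 3 poly(A) NPC libraries, and over the 4 Ch clones with 8 libraries. Allelic ratios were tested with edgeR on Cast and 129 counts with library as a term, where 3 astrocyte and 2 NPC libraries, or 6 Ch libraries, had a minimum of 20 allele-specific reads. P-values were BH adjusted over all genes tested, with a threshold of 0.05. CPM were normalized separately for poly(A) and rRNA-depleted libraries, and the Cast share of a Ch clone is taken over its 2 libraries together. Window medians used genes within 10 Mb on each side that reached the same minimum. Alternatives were DESeq2 (1.42.0), limma (3.58.1) on log2 ratios, no TMM, other filters, minimums of 10 or 50 reads, sex or preparation as a covariate, the library number as a replicate block, and leaving out each library in turn. Other steps used R 4.3.3, Python 3.11.15, pandas 2.3.3, numpy 2.4.6, scipy 1.17.1 and matplotlib 3.10.9, and the fits were tested on simulated data. Named from each of 8 lists were up to 3 called genes a direction with the largest log2 fold change and the most abundant gene per kb, with Gfap, Sox9 and Il6st in any case. Not every gene so named is described. The genes most alike were sought among tested genes with a mean of at least 10 CPM (log2 CPM with a prior count of 1). The members and lists were chosen with earlier results of these data known. Lnk, Brn2 and Pou3f2 in the lists and Map2 among the markers matched no symbol.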

Additional observations from a re-analysis of the deposited data

Results flagged for a closer look

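Of 96 groups of 4 or 5 clones looked at for the members and named genes, 10 held a clone far from the others by Dixon's criterion, and chance gives about 1 in 20 groups. Among the members this was 1 group, the Cast share of Stat3 in the Ch clones, with 45.1% in Ch7 and 41.0 to 41.3% in the others. This rests on Ch7_1 with 47.8%, as Ch7_2 had 42.1%. The log2 ratio ranged over 0.24 among the clones (edgeR, adjusted p = 0.798), over 0.07 without Ch7_1 and over 0.40 without Ch7_2. In astrocytes, Gfap had 1976 CPM in Astro_129 and 65.4 to 254 CPM in the other clones. Astro_G4 stood apart for Lifr, with 390.5 CPM against 285 to 315 CPM, and for Ptpn11, with 384 CPM against 208 to 249 CPM. Astro_C2 stood apart for Pim1 (44.2 CPM against 7.94 to 15.3 CPM), Zbtb10 (33.7 CPM against 12.7 to 16.1 CPM) and Zbtb4 (55.4 CPM against 41.9 to 44.6 CPM). Among the Ch clones, Ch7 stood apart for Slc1a2 (80.2 CPM against 29.9 to 35.5 CPM) and Zbtb4 (10.5 CPM against 7.86 to 8.08 CPM), and Ch8 for Socs1 (0.0579 CPM against 0.0336 to 0.0361 CPM). The Ch libraries had 0 to 2 reads of Socs1 each, too few for a clone to be set apart by them. The cause was not tested for any of these.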

How the results depend on the processing

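For the 7 genes, 439 of 483 values under alternatives kept their direction and their side of the threshold, 30 lost a call, 14 gained one and 0 changed direction, which the ranges among Ch clones cannot do. For the other named genes these numbers were 416, 47, 7 and 6 of 476. Without 1 library each, the genes called between astrocytes and poly(A) NPC were 2269 to 4849 (higher 1000 to 2505, lower 1269 to 2344) in place of 4644, with 2269 without NPC_mG2, 2667 without NPC_F5 and 3030 without NPC_mG6, and the members called were 0 (without NPC_F5) to 2. Changes of the allelic ratio were called for 2 to 72 genes (higher 1 to 36, lower 1 to 36) in place of 59, fewest without NPC_F5. For Cast against 129 in astrocytes, the members called were 3 to 5 and the genes called 3238 to 3826, in place of 4085. In poly(A) NPC the members called were 2 to 3, and the genes called 1499 to 2934 (higher 547 to 1107, lower 952 to 1831) in place of 2751. Among Ch clones, total expression was called for 1509 (without Ch3_2) to 3244 genes and 1 to 4 members, and the allelic ratio for 805 to 1073 genes and 0 to 2 members. With no filter on low counts, total expression was called among them for 4361 genes in place of 2834, and for 4 members. With library number as a replicate block, 3391 genes and 4 members were called for total expression, and 977 genes and 1 member for the ratio. Under this block Zbtb20 (range 0.97, adjusted p = 0.0148) and Stat3 (0.31, 0.0403) were called for total expression, and the ratio of Nfic was not (1.06, 0.0773). No label says that the library numbers mark a batch. Deviations from the clone means had correlations of -0.298 to 0.527 between the 6 pairs of clones, highest between Ch5 and Ch8. A batch shared by some of the clones was not tested. The log2 fold change of Ptpn11 was -0.065 to 0.18 without 1 library, and that of Sox9 was -0.10 with sex as a covariate and -0.16 to 0.51 without 1 library. Of 224 counts over lists, 48 moved by more than 1.5 times, and of 112 list medians 4 moved by more than the spread between libraries. The cause was not tested for these changes. Depth limits the shares of Socs3 in astrocytes, which rest on 107 to 407 allele-specific reads, and of Nfic in the Ch libraries, on 79 to 201.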
